A study of Homo sapiens with 12 samples.

Results

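RMND5A and 7 further genes of the CTLH ubiquitin ligase were examined in leader and follower cells of the H1299 line (human non-small cell lung cancer). The 8 genes were RMND5A, RMND5B, MAEA, RANBP9, RANBP10, ARMC8, WDR26 and YPEL5. RMND5A was chosen by its leader minus follower difference in these same arrays, and the other 7 were added as its paralog and its partners in the complex. All 8 carried a symbol in the platform annotation, among 14884 gene symbols in all, and each was represented by its single probeset. Cells came from spheroids that invaded a 3D matrix and stably carried Dendra2, a fluorophore that turns from green to red under a laser, so all 4 groups share this transgene. The groups were leader cells (L, the first cell of an invading chain), follower cells (F, the cells behind it), invasive photoconverted cells (IR) and invasive non-photoconverted cells (NG), with 3 arrays each. In the paper's technique the selected leader or follower cells were photoconverted to be sorted, and IR against NG cells was its control for photoconversion. The labels do not state photoconversion for the L and F arrays. Comparing leader and follower cells with both invasive groups may thus also set photoconverted against non-photoconverted cells. Each array was made from amplified RNA of a sorted well of 10 cells of this single line, so fewer cells that carry a transcript and less transcript per cell cannot be told apart. Neither the labels nor the methods state that the wells were separate cultures, and p-values therefore reflect only how these samples vary.

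The CTLH complex is the mammalian counterpart of the yeast GID ligase, which marks gluconeogenic enzymes for destruction when yeast cells are given glucose again. Its catalytic core is a pair of RING-type proteins, RMND5A (or its paralog RMND5B) and MAEA. RANBP9 or RANBP10 and GID8 form the scaffold around this core, ARMC8 holds the substrate receptor GID4, and WDR26 or MKLN1 joins scaffold units into larger assemblies, with YPEL5 bound to WDR26. The complex takes ubiquitin from the E2 enzyme UBE2H.

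The arrays differed in how many genes gave a strong signal. Between 76 genes (follower replicate 3) and 332 genes (NG replicate 2) had a log2 value above 6. VIM, which H1299 cells express, lay between 4.15 and 7.35 on the 12 arrays, and NKX2-1, a lung transcription factor, between 2.37 and 3.26. KRT8 and KRT18, also listed as expressed in H1299 cells, had means of 3.20 and 3.86 over the 12 arrays. SFTPB, listed with NKX2-1 as absent, had a mean of 3.04, and its values overlapped those of KRT8. The listed markers thus did not fully separate expressed from absent genes. The endothelial marker PECAM1 stayed between 3.10 and 3.26 and the macrophage marker CD68 between 3.36 and 4.97. CDH1, CDH2, PTPRC and the listed fibroblast markers were not analysed here. As a reference for weak signal, 84 hair keratin-associated genes, chosen after the data were seen and expected to be silent in lung cells, had a 95th percentile of mean log2 values of 4.18. Of the 8 ligase genes, 2 had a mean above that value, RANBP9 (4.57) and WDR26 (4.31). RMND5A had a mean of 3.41 and exceeded the same percentile of its own array on 1 of the 12 arrays. Of the measured genes listed as expressed in every cell, GAPDH (3.97) and B2M (3.93) had means below 4.18 and EEF1A1 (8.82) one above it. A mean below 4.18 thus does not show that a gene was weakly expressed. Probesets differ in their response, so these values describe the strength of signal and do not rank transcripts.

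RMND5A, the RING subunit and counterpart of yeast Gid2, had log2 values of 3.74, 4.09 and 4.40 on the leader arrays, against 2.73, 2.48 and 3.15 on the follower arrays. On the IR arrays it had 3.48, 3.90 and 3.07, against 3.49, 2.87 and 3.52 on the NG arrays. The leader values were all above the follower values, and both invasive groups had means between them and overlapped each other and the follower group. The leader arrays overlapped only the IR arrays. The group means were 4.08 ± 0.33 in leader cells, 2.79 ± 0.34 in follower cells, 3.49 ± 0.42 in IR cells and 3.29 ± 0.36 in NG cells (SD, n = 3 each).

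The leader minus follower difference of RMND5A was a log2 value of 1.29 with a standard error of 0.28. This is the value for which the gene was chosen, so it is given as a description with no test. It ran from 1.13 without leader replicate 3 to 1.47 without follower replicate 3. Leader cells exceeded IR cells by 0.59 (standard error 0.28), and follower cells differed from IR cells by -0.70 (standard error 0.28). These comparisons share arrays with the first and are likewise descriptions. In the order of the means, the distance from leader to IR cells and that from NG to follower cells each exceeded the SD of the groups involved, whereas IR and NG cells differed by less than their SD.

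Between the controls, whose arrays did not enter the choice of RMND5A, the gene differed by 0.19 between IR and NG cells (standard error 0.28, 95% interval -0.43 to 0.81). It did not pass the test (adjusted p = 0.998, limma, Benjamini-Hochberg over 14884 genes). Without NG replicate 2 this difference was -0.018, so the control arrays gave no stable direction. Leader and follower cells together exceeded both invasive groups together by 0.043 (standard error 0.20, adjusted p = 0.989, limma), with an interval of -0.40 to 0.48. The leader and follower means of RMND5A lay on either side of the control level by similar amounts. Set against the IR minus NG difference, that between leader and follower cells was larger by 1.10 (standard error 0.40), again a description.

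**Figure D1:**
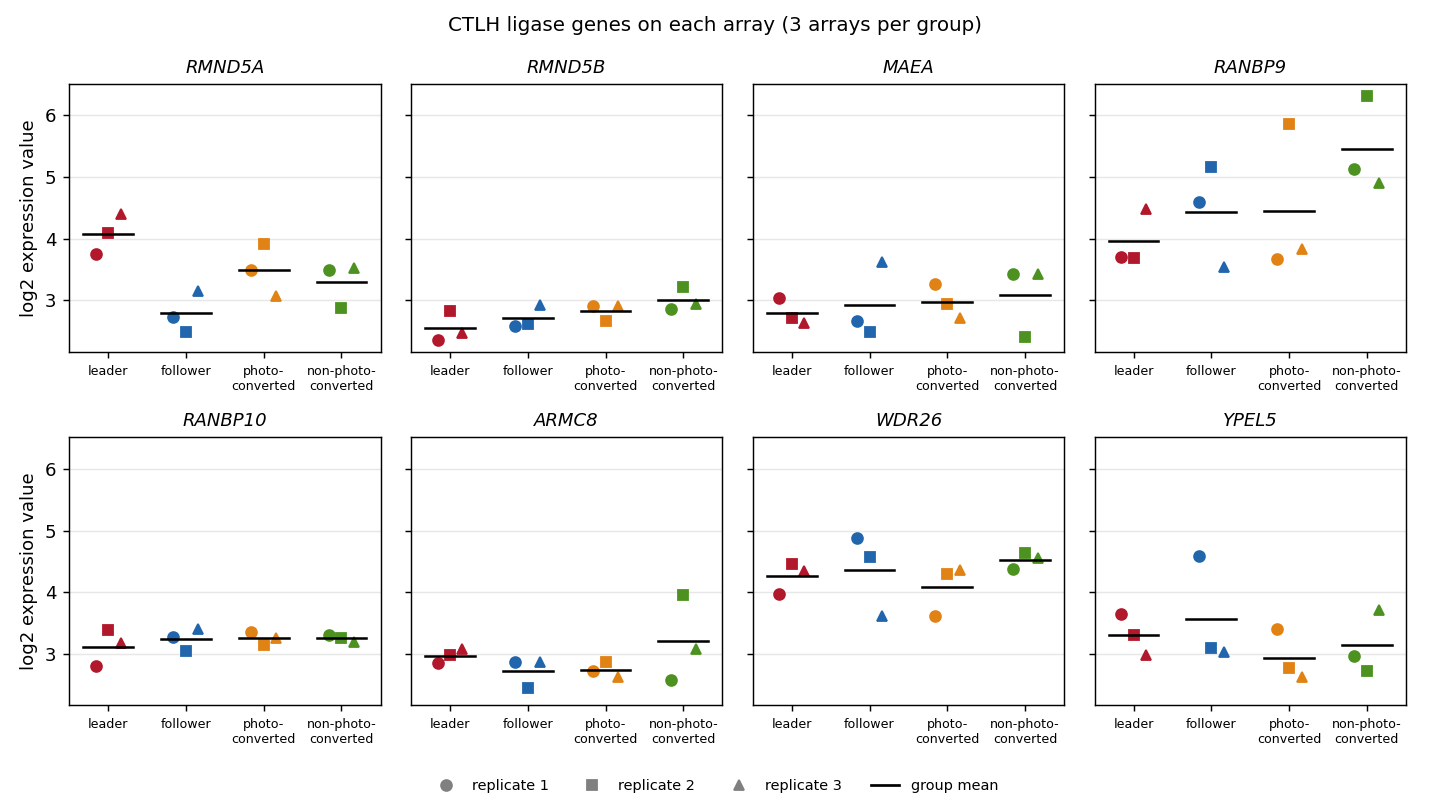
Log2 expression value (y axis) of the 8 ligase genes on each of the 12 arrays, by group (x axis: leader, follower, IR and NG cells), with a symbol per replicate and a line at the group mean. For RMND5A the 3 leader arrays, from 3.74 to 4.40, lie above the 3 follower arrays, from 2.48 to 3.15, while for the other 7 genes leader and follower arrays overlap.

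RMND5B, the paralog that can take the place of RMND5A, had log2 values of 2.36, 2.82 and 2.46 on the leader arrays and 2.59, 2.62 and 2.92 on the follower arrays. On the IR arrays it had 2.90, 2.65 and 2.91, and on the NG arrays 2.85, 3.21 and 2.94. Its leader mean was the lowest and its NG mean the highest of the 4 groups. Its leader minus follower difference was -0.16 (standard error 0.19, 95% interval -0.58 to 0.25). A difference in signal the size of that of RMND5A lay outside this interval in either direction. Without follower replicate 3 the difference of RMND5B was -0.058. RMND5B had weak signal, with a mean of 2.77 against a median of 2.83 for the hair keratin-associated genes. Whether a change in its transcript would show at that level was not tested. Leader and follower cells together differed from both invasive groups together by -0.28 (standard error 0.13, unadjusted p = 0.055, adjusted p = 0.854, limma), and this pooled difference stayed between -0.35 and -0.23 when single arrays were left out.

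MAEA, the RING partner of RMND5A and counterpart of yeast Gid9, had log2 values of 3.03, 2.70 and 2.63 on the leader arrays and 2.66, 2.49 and 3.62 on the follower arrays. It had 3.27, 2.94 and 2.72 on the IR arrays and 3.43, 2.40 and 3.42 on the NG arrays. All groups overlapped, with a single high array among the follower cells and a single low one among the NG cells. Its leader minus follower difference was -0.13 (standard error 0.34, 95% interval -0.88 to 0.62), and it was 0.22 without follower replicate 3, the array with the high value.

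RANBP9, a scaffold subunit, had log2 values of 3.69, 3.69 and 4.48 on the leader arrays and 4.60, 5.16 and 3.54 on the follower arrays. It had 3.66, 5.86 and 3.83 on the IR arrays and 5.13, 6.32 and 4.90 on the NG arrays. The highest value of each of the follower, IR and NG groups came from replicate 2. These are the arrays with the most genes above 6 in their groups, 192, 186 and 332, and the part of this in the result was not tested. RANBP9 differed by -0.999 between IR and NG cells (standard error 0.60, 95% interval -2.32 to 0.33, adjusted p = 0.998, limma). The difference was -1.70 without IR replicate 2 and -0.57 without NG replicate 2. Between leader and follower cells it was -0.48 (standard error 0.60), or -0.11 without follower replicate 2. Its paralog RANBP10 lay between 2.79 and 3.40 on all 12 arrays, and its leader minus follower and IR minus NG differences were -0.12 and -0.0027. The first of these was 0.036 without leader replicate 1.

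WDR26, which joins scaffold units and recruits substrates, had log2 values of 3.96, 4.46 and 4.35 on the leader arrays and 4.88, 4.57 and 3.62 on the follower arrays. It had 3.61, 4.29 and 4.37 on the IR arrays and 4.37, 4.63 and 4.56 on the NG arrays. Leader and follower arrays overlapped, with a difference of -0.098 that was 0.16 without follower replicate 1, whereas every IR array lay below every NG array, the closest pair by less than 0.01. The IR minus NG difference was -0.43 (standard error 0.31, adjusted p = 0.998, limma), or -0.19 without IR replicate 1. WDR26 was the single ligase gene of the 8 whose IR and NG arrays did not overlap, where 9.75% of all genes did not.

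ARMC8, the subunit that holds the substrate receptor, lay between 2.44 and 3.95 on the 12 arrays, the highest value being that of NG replicate 2, the array with the most genes above 6. It was at 2.97 ± 0.11 in leader cells and 2.72 ± 0.24 in follower cells (SD, n = 3 each), a difference of 0.24 (standard error 0.29). Leaving out follower replicate 2 made it 0.10. YPEL5, the WDR26-bound subunit, lay between 2.61 and 4.58, the highest value being that of follower replicate 1. It was at 3.31 ± 0.33 in leader cells and 3.57 ± 0.88 in follower cells (SD, n = 3 each), a difference of -0.26 (standard error 0.42), or 0.25 without that follower array.

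At an adjusted p under 0.05 (limma), 0 of the 8 genes passed in any of 6 comparisons. These were leader with follower, IR with NG, leader and follower with both invasive groups, leader with IR, follower with IR, and the leader minus follower difference with the IR minus NG difference. In the same comparisons 0%, 0%, 0.00672%, 0%, 0% and 0% of all genes passed. At an unadjusted p under 0.05, 0 of the 8 genes were found between IR and NG cells, where 4.86% of all genes were, and 0 of 8 between leader and follower cells together and both invasive groups together, where 5.66% were. For leader and follower cells the background was 4.12%, and RMND5A, whose value there chose it, was the only one of the 8. It was also the only one between follower and IR cells (background 4.21%) and for the difference of differences (background 3.65%), which share those arrays, and between leader and IR cells 0 of 8 were found (background 3.9%). The methods' t-test at an unadjusted p under 0.05 gave 1 of 8, RMND5A, between leader and follower cells (4.04% of all genes) and 0 of 8 between IR and NG cells (4.61%). The other 7 genes had leader minus follower differences from -0.48 to 0.24 and unadjusted p from 0.40 to 0.762 in limma. The methods' permutation procedure, which sets pairwise leader minus follower differences against absolute differences between the controls, called 1 of the 8, again RMND5A, and 5.92% of the 14198 genes it could call. Of the 8 genes, 1 had leader and follower arrays that did not overlap, RMND5A, beside 8.74% of all genes. Nothing is read from these counts for RMND5A.

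In direction, 2 of the 8 genes had higher and 6 lower means in leader than in follower cells (median log2 difference -0.13, against 0.0022 over all genes). This median was 0.026 without follower replicate 1. Between IR and NG cells 1 had a higher and 7 a lower mean (median -0.19, against 0.017 over all genes), and the 7 were all of the genes other than RMND5A. Over all genes, 50.4% had a higher mean in leader than in follower cells and 52.7% a higher mean in IR than in NG cells. The difference between IR and NG cells was also negative for GAPDH, a glycolytic enzyme used by every cell (-0.78), and for B2M, a subunit of MHC class I (-0.69), and was 0.049 for the translation factor EEF1A1. The IR arrays held 103, 186 and 143 genes above 6, against 157, 332 and 163 on the NG arrays. The part of these array differences in the lower means was not tested.

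**Figure D2:**
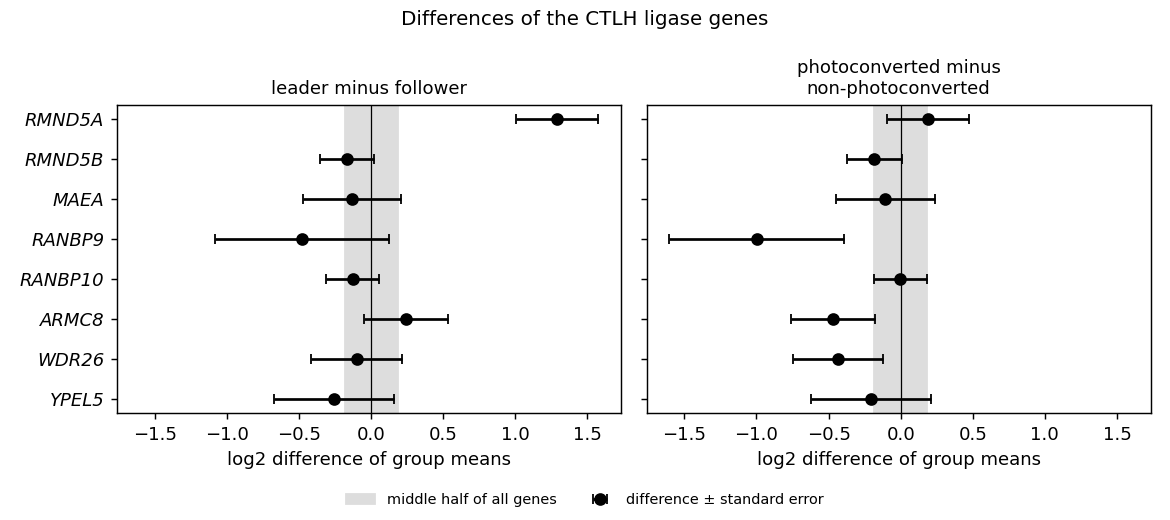
Log2 difference of group means (x axis) of the 8 ligase genes, with bars for the standard error, between leader and follower cells (left) and between invasive photoconverted and non-photoconverted cells (right). The grey band spans the quartiles of all 14884 genes. RMND5A lies at 1.29 on the left and 0.19 on the right, RANBP9 has the widest bars (standard error 0.60), and the standard errors of the other 6 genes are 0.18 to 0.42.

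In signal, the 8 genes had no common pattern over the 12 arrays. Of their 28 pairs, 14 had a positive and 14 a negative Pearson correlation, with a median of -0.028. RMND5A correlated at 0.19 with MAEA, at -0.33 with RMND5B and at -0.22 with RANBP9. The highest pairs were RMND5B with RANBP10 (0.67) and RANBP9 with WDR26 (0.58), and the lowest was MAEA with WDR26 (-0.62). These values are descriptions, since the points share arrays, groups and array signal. RMND5B, MAEA, RANBP10, ARMC8 and YPEL5 exceeded the hair keratin-associated 95th percentile of the same array on 0 of the 12 arrays. With signal this weak, the correlations cannot show whether the transcripts vary together. Among 7441 genes with a mean at or above the median, those most like RMND5A over the 12 arrays were KRT10 (0.83), an epidermal keratin, SAPCD2 (0.83), KSR2 (0.83), a scaffold of RAF and MEK kinases, the phosphatase gene DUSP15 (0.82) and the zinc finger gene ZNF414 (0.81). Their leader means exceeded their follower means by 0.43 to 0.77, which the choice by likeness to RMND5A over the same arrays builds in.

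**Figure D3:**
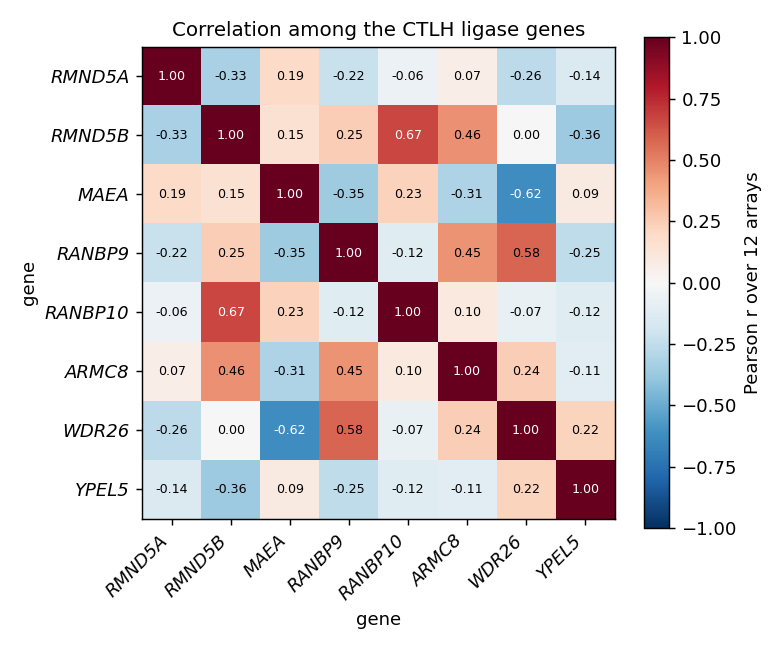
Pearson correlation of each pair of the 8 ligase genes over the 12 arrays (colour and number, red positive and blue negative). RMND5A, in the top row, has no correlation above 0.19 with another gene of the complex, and the strongest pair is RMND5B with RANBP10 at 0.67.

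GID8, the scaffold subunit that binds RANBP9, was not among the 8 genes but stood on the list of other CTLH subunits. It had log2 values of 3.38, 3.86 and 4.17 on the leader arrays, against 2.84, 3.33 and 3.16 on the follower arrays. On the IR arrays it had 2.45, 2.78 and 2.61, against 3.66, 4.16 and 3.84 on the NG arrays. No leader array was as low as any follower array, and every IR array lay below the arrays of the other 3 groups. Leader cells exceeded follower cells by 0.70 (standard error 0.23, 95% interval 0.19 to 1.21, unadjusted p = 0.012, adjusted p = 1.00, limma), in the direction of RMND5A. IR cells differed from NG cells by -1.27 (standard error 0.23, 95% interval -1.78 to -0.76, unadjusted p = 0.00018, adjusted p = 0.537, limma), whereas RMND5A differed there by 0.19. When single arrays were left out, the IR minus NG difference stayed between -1.39 and -1.14 and the leader minus follower difference between 0.51 and 0.91. Because of its control difference, GID8 was among the 686 genes that the methods' procedure, as written here, leaves out. GID4, the substrate receptor, differed by -0.035 between leader and follower cells and by 0.26 between IR and NG cells (standard error 0.31 for both). MKLN1 was not analysed here.

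Among ubiquitin genes and E2 enzymes, 4 of 10 listed genes were measured and 0 passed the adjusted test in any comparison. UBE2H, the E2 enzyme of the complex, lay between 2.39 and 3.93 with all groups overlapping, and its leader minus follower difference was 0.16 (standard error 0.40). UBB, which encodes polyubiquitin, had log2 values of 4.06, 3.75 and 4.53 on the leader arrays, against 6.57, 4.62 and 4.73 on the follower arrays. The difference was -1.20 (standard error 0.45, unadjusted p = 0.0228, adjusted p = 1.00, limma), or -0.56 without follower replicate 1, the array with the high value. Between IR and NG cells UBB differed by -0.86 (standard error 0.45), and those arrays did not overlap either. Of all genes, 8.74% did not overlap between leader and follower cells and 9.75% between IR and NG cells. Like GID8, UBB was left out of the permutation procedure as changed between the controls.

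Of 12 listed substrates and partners reported for the complex, 6 were measured and 0 passed. In leader cells 5 of the 6 had a higher mean than in follower cells and 1, HMGCS1, a lower one (median 0.23, against 0.0022 over all genes). The 5 were LDHA (0.46), HBP1 (0.29), NMNAT1 (0.26), HGS (0.19) and HDAC6 (0.06), and their leader and follower arrays overlapped. Each of the 5 exceeded the hair keratin-associated 95th percentile of the same array on 0 of the 12 arrays, and HMGCS1 on 5. HMGCS1, which makes the precursor of mevalonate and is a reported target of the mammalian complex, was singled out after its values were seen. It had 2.90, 2.92 and 3.02 on the leader arrays and 3.10, 4.53 and 3.20 on the follower arrays. It had 3.02, 4.54 and 4.29 on the IR arrays and 4.49, 4.42 and 4.17 on the NG arrays. The leader arrays were low and close together, and 1 follower and 1 IR array differed from the rest of their groups. Leader minus follower was -0.66 (standard error 0.42, adjusted p = 1.00, limma), or -0.20 without follower replicate 2. Leader and follower cells together differed from both invasive groups by -0.88 (standard error 0.29, unadjusted p = 0.0123, adjusted p = 0.767, limma). Of all genes, 5.66% had an unadjusted p under 0.05 in this comparison. Since HMGCS1 was singled out by its values, its differences are descriptions.

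Of 8 listed gluconeogenic enzymes, 3 were measured, and all 3 had higher means in leader than in follower cells (median 0.33, against 0.0022 over all genes). Of all genes, 50.4% had a higher leader mean. PCK1, PCK2 and PC had weak signal, each above the hair keratin-associated 95th percentile of its own array on 0 of the 12 arrays. PCK2, the mitochondrial enzyme that makes phosphoenolpyruvate, had log2 values of 3.03, 3.53 and 3.56 on the leader arrays, against 3.10, 2.68 and 2.60 on the follower arrays. The difference was 0.58 (standard error 0.23, unadjusted p = 0.0285, adjusted p = 1.00, limma), and the groups overlapped. The methods' permutation procedure called PCK2 higher in leader cells, and it called 5.92% of the 14198 genes it could call. PCK1, the cytosolic counterpart of PCK2, had a mean of 2.76 over the 12 arrays and a difference of 0.14. PC had a difference of 0.33, and its leader and follower arrays did not overlap, as for 8.74% of all genes. The 4 paralogs of YPEL5 (YPEL1 to YPEL4) had a higher mean in leader than in follower cells for 2 genes and a lower one for 2, a median of 0.061, and 0 passed.

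**Figure D4:**
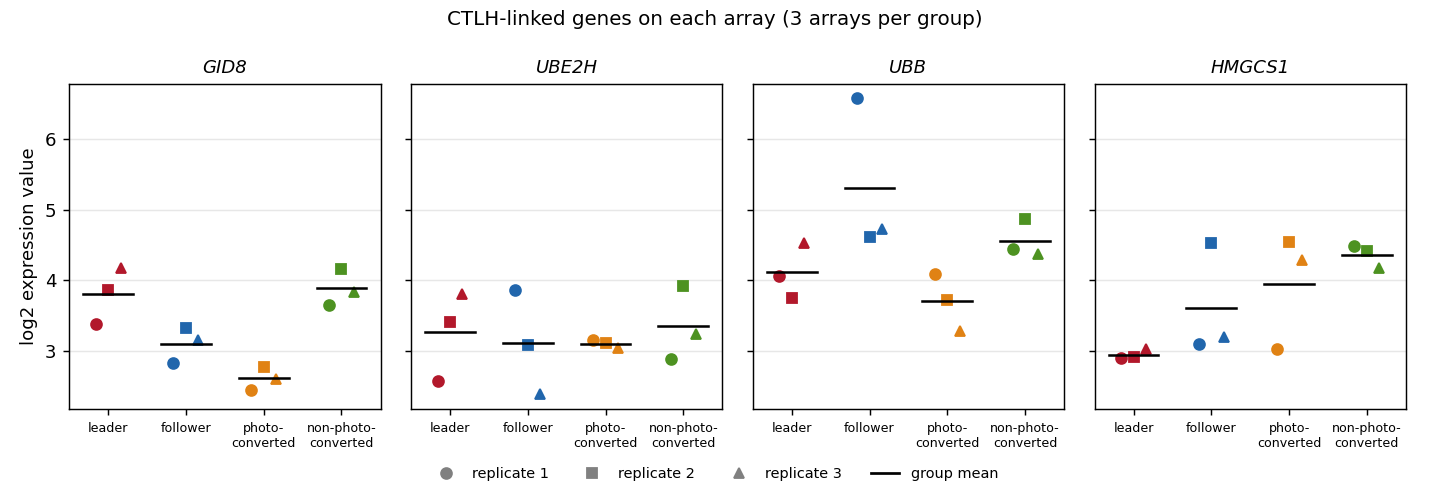
Log2 expression value (y axis) of the scaffold gene GID8, the E2 gene UBE2H, the ubiquitin gene UBB and the reported target HMGCS1 on each of the 12 arrays, by group (x axis), with a symbol per replicate and a line at the group mean. GID8 is higher on the leader arrays (3.38 to 4.17) than on the follower arrays (2.84 to 3.33) and is lowest on the photoconverted arrays (2.45 to 2.78), and UBB is at 6.57 on a single follower array.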

How the data were processed

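Per the methods, the authors adjusted the array intensities for GC content, corrected background with RMA, took log2, quantile normalized the arrays and averaged probes per probeset in Partek 6.6, and deposited these log2 values. The build and the probe sequences are not given in the sources used here. Of 53617 probesets, 5473 are listed at 0 on all arrays and 16098 carry 1 symbol. The probeset with the highest mean represented each of 14884 symbols. A single model of 4 groups was fitted in R 4.3.3 with limma 3.58.1 (lmFit, eBayes, Benjamini-Hochberg, threshold 0.05), and the fit was tested on simulated data. The methods' permutation procedure (500 permutations, unadjusted p under 0.05) was written in Python 3.11.15. The methods do not give every detail of this procedure. In the version written here, genes with an unadjusted p under 0.05 between IR and NG cells in the methods' t-test were left out. It called 840 genes, fewer than the paper reports for leader and follower cells together, so the published counts were not reproduced. The precision is limited by 3 arrays per group, each of 10 cells.

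The 8 genes and all lists were chosen with earlier results of these data known. Named were the 8 genes, other measured subunits, UBE2H, genes of other lists at an unadjusted p under 0.05 between leader and follower or IR and NG cells, and the 5 genes most correlated with RMND5A; HMGCS1 was added later. The alternatives were a filter on level, cyclic loess or median centring of the arrays, all probesets or their mean per symbol, an intensity trend, array weights, only the arrays compared, a replicate block, the methods' t-test and leaving out single arrays.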

Additional observations from a re-analysis of the deposited data

Results flagged for a closer look

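GID8 had differences of opposite sign in 2 comparisons, higher in leader than in follower cells and lower in IR than in NG cells. Its arrays did not overlap in either, as for 8.74% and 9.75% of all genes. Its mean of 3.35 was below the reference for weak signal (4.18). The leader minus follower difference exceeded the IR minus NG difference by a log2 value of 1.97 (standard error 0.33). GID8 was flagged because its arrays lay apart in opposite directions in these 2 comparisons. That choice builds in a large difference of differences, so the value is a description. It did not pass the test (adjusted p = 0.808, limma, over 14884 genes). With single arrays left out it stayed between 1.79 and 2.18.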

How the results depend on the processing

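In limma the count of the 8 genes past the adjusted test was 0 in all 6 comparisons under each of the 22 alternatives in which it could be fitted, including the methods' t-test after adjustment (the filter on level left out RMND5B). The methods' permutation procedure called 1, RMND5A. The leader minus follower difference of RMND5A, 1.29, cannot change under the replicate block, the intensity trend, the filter on level or the methods' t-test. Nor can it change with only the arrays compared, or with all probesets or their mean, since RMND5A has a single probeset. Under the alternatives with all arrays that could change it, this difference ran from 1.27 (cyclic loess) to 1.31 (array weights). The labels do not say whether same-numbered arrays were paired. Deviations of the 18 same-numbered pairs correlated at -0.071 to 0.22, and 5 of the 12 arrays correlated best with an array of their own number. These values do not settle whether same-numbered arrays shared a sort or culture. With the block 669 genes had an unadjusted p under 0.05 between leader and follower cells, against 613 without it. Of the 48 differences of the 8 genes, 24 kept their sign under every alternative, including those that could not change them. The 3 arrays per group and weak signal limit what could be detected.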
